A study of Homo sapiens with 8 samples.

Results

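N1-methyladenosine (m1A) is an RNA modification in which a methyl group sits on the edge of adenosine that pairs with uridine. TRMT61A is the catalytic subunit of the enzyme that, with its partner TRMT6, places m1A in the T-loop of cytosolic tRNAs, and a small number of mRNA sites that resemble a T-loop are known to be methylated by the same enzyme. Antibody-based maps of m1A in mRNA are also known for signal near the 5′ end of transcripts.

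The regions described here are stretches of mRNA genes in which an m1A peak was listed for every sample of the series. The cells were 5637, an established human bladder cancer line, either with stable knockdown of TRMT61A or as control cells labelled wild type, with 2 samples in each group. Each sample gave 1 input RNA library and 1 library after immunoprecipitation with an m1A antibody, or 8 libraries in all. The labels do not say whether the samples were separate cultures, whether the knockdown line was 1 clone or which construct it carried, so p-values cover the spread between the 2 samples of a group, and that spread may be technical only. Peaks of the 4 mRNA lists, 1 list a sample, were merged wherever they overlapped by at least 1 base, and 1320 of the 11962 merged regions, or 11.0%, held a peak from all 4 lists. Another 1190 regions had peaks in 3 lists, 2151 in 2 lists and 7301 in 1 list. The regions were chosen by the presence of a peak in each list, so their folds and scores are a description and were not tested.

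The input libraries held 38989448 and 37912238 gene counts in knockdown cells and 30046283 and 42177927 in control cells. CPM is a gene's counts scaled to the library total over tested genes, with that total adjusted between libraries by TMM. The targeted gene, TRMT61A, had 13.4 and 6.71 CPM in knockdown inputs and 19.8 and 14.7 CPM in control inputs. Knockdown replicate 1 lay close to control replicate 2, and the difference was not past the threshold of 0.05 on the Benjamini-Hochberg adjusted p (edgeR log2 fold change -0.78 ± 0.29 SE, adjusted p = 1.00). All 8 markers of epithelial and basal bladder cells were above 1 CPM, with a median of 243 CPM, while 0 of 4 immune markers reached 1 CPM. Of the other measured markers, 2 of 6 luminal urothelial ones, 2 of 5 fibroblast ones and 1 of 4 endothelial ones reached 1 CPM, the highest being PPARG at 149 CPM, COL1A1 at 33.5 CPM and VWF at 1.28 CPM.

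Sequences of the host gene's promoter, from RefSeq on GRCh38.p14, show where some of these regions lie. The first 4 sequences below belong to the regions of highest mean fold that covered the most upstream RefSeq start of their host gene and had no tRNA gene within 1 kb. Each runs from 60 bases before that start to 30 bases after it, on the gene's strand, and capitals mark the bases inside the region.
SLC32A1 (chr20:38724426-38724515, plus strand): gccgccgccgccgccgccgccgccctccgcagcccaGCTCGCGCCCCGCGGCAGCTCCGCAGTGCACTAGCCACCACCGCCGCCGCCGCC
PTPRF (chr1:43530823-43530912, plus strand): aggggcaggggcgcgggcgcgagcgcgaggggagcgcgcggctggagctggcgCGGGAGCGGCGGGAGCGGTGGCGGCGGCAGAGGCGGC
MXRA7 (chr17:76710936-76711025, minus strand): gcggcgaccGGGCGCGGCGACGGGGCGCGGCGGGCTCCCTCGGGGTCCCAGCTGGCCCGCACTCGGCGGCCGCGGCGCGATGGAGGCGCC
VPS37B (chr12:122896095-122896184, minus strand): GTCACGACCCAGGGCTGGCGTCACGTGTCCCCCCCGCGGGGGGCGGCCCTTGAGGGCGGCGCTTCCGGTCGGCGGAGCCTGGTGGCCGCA

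The letters of a tRNA T-loop were looked for in 2 forms, GTTCNA and the longer GTTCNANNC, where N is any base and the longer form contains the shorter one. On the host gene's strand and inside a region, the longer form was found in 5 of the 699 regions that overlapped a promoter window of their host gene. The next 4 sequences are those of highest mean fold among the 5, with the motif in capitals.
NECTIN2 (chr19:44846300-44846328, plus strand): acgtcagcggGTTCGAACCgccggagctg
PI4K2B (chr4:25234054-25234082, plus strand): aggtggcgtccGTTCTACCCggtcgctcc
USP39 (chr2:85616207-85616235, plus strand): gtctaagcgggagtctcgcgGTTCCACTC
C9orf16 (chr9:128160279-128160307, plus strand): ctgctgccgcGTTCTACCCttccggcccg
A match is a description of letters and not a methylated site, and the windows cover only part of each region.

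The 1320 regions lay in 1206 host genes, which were 16.6% of the 7272 genes with any merged region. Most hosts, 1112 genes or 92.2%, had 1 such region, 76 had 2, 14 had 3 and 3 had 4. MYH9, the heavy chain of nonmuscle myosin IIA, had 5. For 668 hosts, or 55.4%, the region in all 4 lists was the gene's only merged region. Chromosome 1 held 143 of the regions and chromosome 19 held 140, shares of 10.8% and 10.6%, beside 9.62% and 9.81% of all merged regions. None lay on chromosome Y.

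The regions were nearly always made of 1 peak from each list. This held for 1297 of the 1320, and the other 23 contained up to 7 peaks. In 661 of the 1297, or 51.0%, all 4 peaks had the same start and the same end. How the bounds were set is not stated in the sources used here. Among regions with 1 peak in each of 2 lists this share was 47.9%, and among those of 3 lists it was 42%. In 1313 of the 1320 regions some bases were shared by all 4 lists, with a median of 262 shared bases. The other 7 regions, in UBN2, TTI2, TSHZ2, PLEKHG2, DCAF11, SPPL3 and SHB, were joined only through peaks that each overlapped some of the others.

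The median region was 321 bases long, with quartiles of 205 and 501 bases, beside a median of 203 bases for the 10642 regions found in 1 to 3 lists. Merging up to 4 peaks can only lengthen a region, so lengths were also taken peak by peak. Peaks inside the regions had median lengths of 278 and 296 bases in knockdown lists and 309 and 305 bases in control lists. Other peaks of the same lists had medians of 199 and 215 bases in knockdown lists and 219 and 213 bases in control lists. In each list, then, the peaks of these regions were the longer ones. Of the 1320 regions, 45 were no longer than 100 bases and 81 were over 1000 bases.

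The longest region covered 7249 bases of PLEC, which encodes the cytoskeletal linker plectin (chr8:143915147-143922395), and 6053 of them were shared by all 4 lists. The next were 5010 bases of TCHH, which encodes the hair follicle protein trichohyalin, and 3737 bases of LHFPL4. The shortest was 18 bases long at ALOXE3, which encodes an epidermal lipoxygenase, followed by 33 bases of CCDC124 and 39 bases of AK1, an adenylate kinase gene. All 4 lists gave the same bounds for these 3 short regions.

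The weight of the regions within a list differed with the length of the list. They held 23.0% and 35.9% of the peaks in knockdown lists, of 5793 and 3686 peaks, and 19.8% and 30.7% of the peaks in control lists, of 6701 and 4319 peaks. Each list's share of genes that host such a region was 27.6% and 38.9% in knockdown lists and 25% and 35.4% in control lists. Among the 500 peaks of highest score, they held 79.4% and 85.2% in knockdown lists and 75.8% and 80.2% in control lists. Among the 500 of lowest score they held 4.6% and 9% in knockdown lists and 3% and 6.2% in control lists. The score rises as the peak's p falls, since it is that p on a negative log10 scale times 10. The regions thus held most of the 500 strongest peaks of each list and few of the 500 weakest.

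Peak folds, the authors' linear ratio of immunoprecipitated over input reads, were higher inside the regions than elsewhere in each list. Median folds inside were 11.9 and 10.4 in knockdown lists and 14.4 and 12.5 in control lists. The other peaks had medians of 5.47 and 5.58 in knockdown lists and 5.65 and 5.86 in control lists. Both knockdown folds were below both control folds in 449 of the 1320 regions, or 34.0%, and above them in 179, or 13.6%, and the groups overlapped in the other 692. Because peak presence chose the regions and the folds have no stated scaling between lists, the groups' folds were not tested against each other. Averaged over the 4 lists, 895 regions had a fold over 10, 24 over 100 and 9 over 1000, with a median of 13.1.

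**Figure D1:**
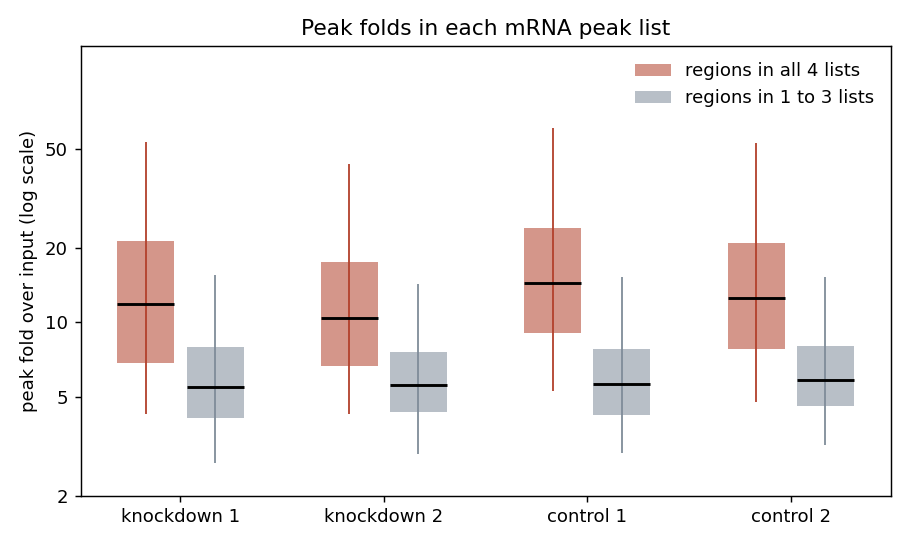
Peak folds over input in each of the 4 mRNA peak lists, on a log scale, for peaks in regions found in all 4 lists and for the other peaks. Boxes span the quartiles, black lines mark medians, and thin lines run from the 5th to the 95th percentile. In every list the lower quartile inside the regions, 6.69 to 9.05, lies above the median of the other peaks, 5.47 to 5.86.

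The fold of 1 region could differ widely between lists. Over the 1320 regions, the highest of the 4 folds was 2.37 times the lowest in the median, and 170 regions, or 12.9%, had a ratio over 4. The widest was at ELF1, an ETS transcription factor gene, with folds of 1297 and 1639 in knockdown lists and 1256 and 24.5 in control lists. There, 3 lists stood together and control replicate 2 stood far below them. The merged ELF1 region was 603 bases long, with 141 bases shared by all 4 lists.

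Scores reached a ceiling, with 74 regions at 3100 or more in every list. At the other end, 340 regions, or 25.8%, had at least 1 peak with a score under 100, near the lowest score listed of 50. Just inside the rule stood RANBP3, with a score of 50.1 in control replicate 1 and folds of 3.46 to 5.03 over the 4 lists, and CNNM2 and RAI1, each with a score of 50.1 in knockdown replicate 1. Just outside it stood regions with top scores in 3 lists and no listed peak in the other one. VAV3, a guanine nucleotide exchange factor gene, lacked a peak in knockdown replicate 2 and had folds of 237 in knockdown replicate 1 and 322 and 518 in the control lists. BCCIP lacked one in knockdown replicate 1, and CCDC85B lacked one in control replicate 2.

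The highest folds stood beside tRNA genes. All 9 regions with a mean fold over 1000 had a RefSeq tRNA gene within 1 kb, as did 4 of the 15 between 100 and 1000 and 7 of the 1296 at or below 100. Of these 20 regions, 4 overlapped the tRNA gene itself. Their median mean fold was 670, and that of the other 1300 regions was 13.0. Mature tRNA is the main carrier of T-loop m1A in the cell. Reads at these regions were not analysed here, so tRNA precursors and reads of the mRNA cannot be told apart.

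SHF, which encodes an adaptor with an SH2 domain, had the highest fold. Its region, chr15:45200727-45201175, covered a RefSeq start of SHF and overlapped TRH-GTG1-9, a histidine tRNA gene. Folds there were 47324 and 64482 in knockdown lists and 70834 and 69875 in control lists. The SHF transcript itself was read lightly in input, at 6.58 and 9.02 CPM in knockdown cells and 6.85 and 8.44 CPM in control cells.

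TRIM41, a ubiquitin ligase gene, came next, with folds of 51113 and 52589 in knockdown lists and 37392 and 19679 in control lists. The region, chr5:181222499-181222652, lay upstream of the RefSeq starts of TRIM41, 32 bases from TRV-CAC1-5, a valine tRNA gene, and held the whole hairpin of MIR4638 on the opposite strand to TRIM41. The RefSeq hairpin is shown because it lies in the strongest region but one, with the bases inside the region in capitals.
MIR4638 (chr5:181222566-181222633, minus strand): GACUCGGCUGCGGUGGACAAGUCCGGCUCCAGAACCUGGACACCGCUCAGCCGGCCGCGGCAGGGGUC
Another region of TRIM41, at a start of the gene, had folds of 8.80 and 10.6 in knockdown lists and 34.0 and 15.4 in control lists. It lay 823 bases from the same tRNA gene, so the 2 regions of this gene differed in fold by more than 1000 times.

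ERCC1 was the gene listed for a region of 93 bases at chr19:45478736-45478828, outside the RefSeq bounds of ERCC1 and 49 bases from TRU-TCA1-1, a selenocysteine tRNA gene. Its folds were 8547 and 6863 in knockdown lists and 9763 and 9159 in control lists. ILF2, a double-stranded RNA-binding complex subunit, had 2701 and 2728 in knockdown lists and 5562 and 4918 in control lists, in a region 202 bases from TRX-CAT1-1. All 4 lists gave identical bounds for both of these regions. NDUFS7, a subunit of respiratory complex I, had 3203 and 2367 in knockdown lists and 2498 and 2452 in control lists, in a region that overlapped TRN-GTT2-6, an asparagine tRNA gene.

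KCTD2 had a pair of such regions inside the gene. The first, 55 bases from TRR-CCT1-1, had folds of 1574 and 1526 in knockdown lists and 4775 and 1564 in control lists. The second, 47 bases from TRR-TCG3-1, had folds of 606 and 690 in knockdown lists and 960 and 969 in control lists. Both neighbours are arginine tRNA genes. The 18 bases at ALOXE3 had folds of 1927 and 2011 in knockdown lists and 1654 and 2143 in control lists, 108 bases from a lysine tRNA gene, while ALOXE3 input reads stayed below 1 CPM in every sample. POLR3E encodes a subunit of RNA polymerase III, which transcribes tRNA genes. Its region covered a start of the gene 154 bases from TRL-AAG2-4 and had folds of 418 and 1631 in knockdown lists and 1536 and 1647 in control lists.

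Away from tRNA genes the highest folds were lower. MTRNR2L8, a humanin-like gene that resembles mitochondrial 16S ribosomal RNA, had 668 and 131 in knockdown lists and 557 and 1313 in control lists, over 1303 bases that also held the hairpin of MIR4485. MTRNR2L12, of the same family, had 168 and 81.9 in knockdown lists and 287 and 183 in control lists. Reads of such copies and of the mitochondrial RNA they resemble may not be separable, and MTRNR2L8 and MTRNR2L12 had no row in the count table. CHD3, a chromatin remodeller gene, had 497 and 325 in knockdown lists and 242 and 370 in control lists. GNPTAB, whose product tags lysosomal enzymes with mannose phosphate, had 317 and 282 in knockdown lists and 443 and 359 in control lists. SLC32A1, the gene of a vesicular transporter of inhibitory transmitters, had 352 and 236 in knockdown lists and 61.3 and 131 in control lists. It too had no row in the count table, so its input RNA level is not known here. The groups overlapped at CHD3 and MTRNR2L8, both knockdown values were below both control values at GNPTAB and MTRNR2L12, and both were above them at SLC32A1.

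**Figure D2:**
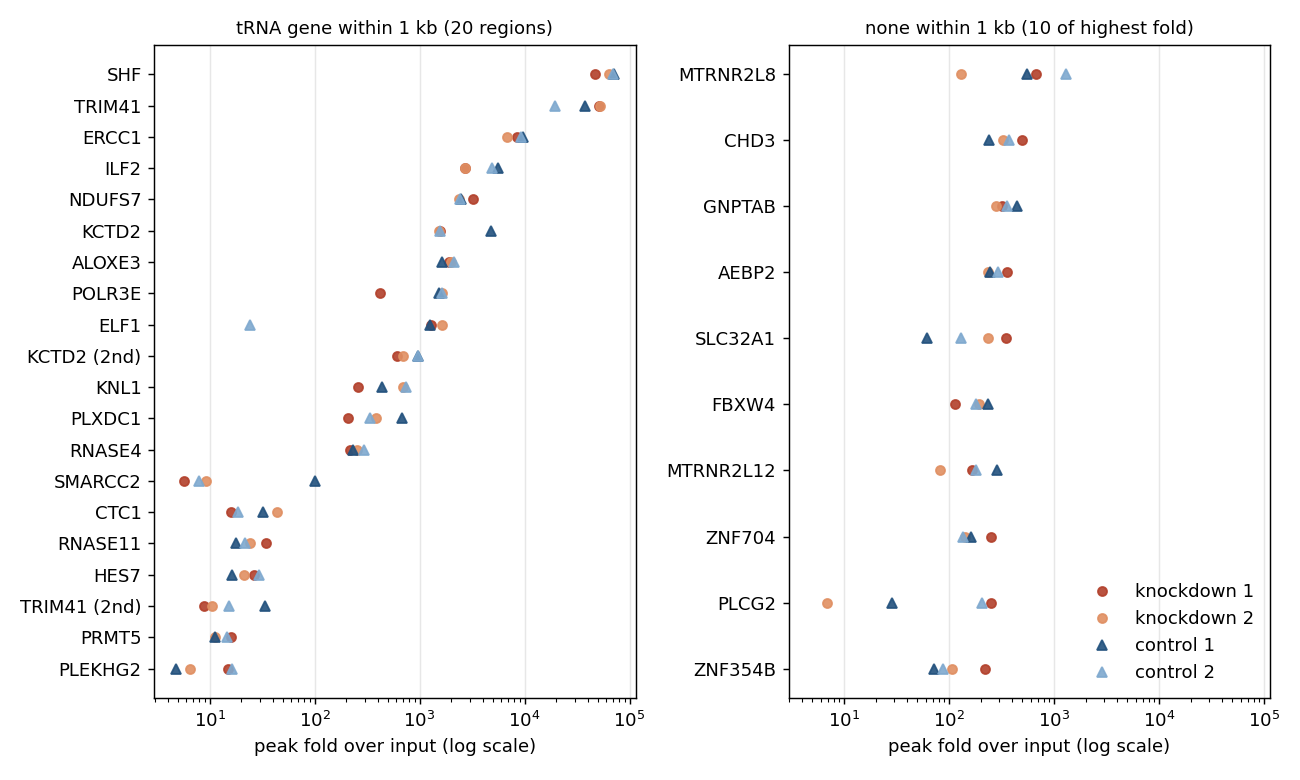
Peak folds over input (log scale) in each list for the 20 regions with a tRNA gene within 1 kb, on the left, and for the 10 regions of highest mean fold without one, on the right. Circles are knockdown lists and triangles control lists. The 10 highest regions on the left stand at 606 or more in every list except POLR3E in knockdown replicate 1 (418) and ELF1 in control replicate 2 (24.5), and the highest value on the right is 1313.

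Other small RNA genes overlapped 14 of the regions, or 1.06%, beside 0.19% of the regions in 1 to 3 lists, which were shorter. TMEM107 held SNORD118, the U8 small nucleolar RNA, with region folds of 15.1 and 16.8 in knockdown lists and 52.5 and 28.6 in control lists. TTI2 held SNORD13, the U13 small nucleolar RNA, at a mean region fold of 17.2. The other 12 held miRNA hairpins, among them MIR639 at DNAJB1, MIR3652 at HSP90B1 and the pair MIR2861 and MIR3960 at CDK9. Apart from TRIM41 and MTRNR2L8, these miRNA regions had mean folds between 7.28 and 21.3.

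Most of the regions stood at the start of their host gene. A RefSeq start was available for the host of 1074 regions, and 717 of them, or 66.8%, covered a start or began within 100 bases after one. The share was 56.7% for regions in 3 lists, 46.7% for those in 2 and 26.6% for those in 1, so it was higher the more lists a region was found in. The middle of the region fell in the first 20% of the gene's length for 74.9% of the regions, and in the last 20% for 7.36%, beside 45.9% and 19.6% of the regions in 1 to 3 lists. Only 2.42% ended within 500 bases of the gene's end. Position was not used to choose the regions.

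**Figure D3:**
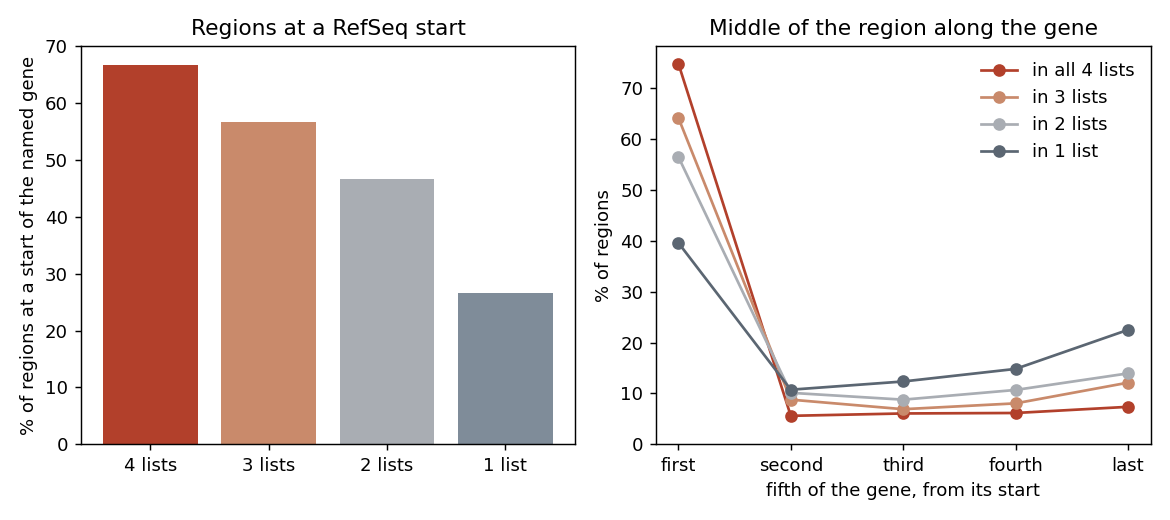
Left, the percentage of regions that covered a RefSeq start of the named gene or began within 100 bases after it, by the number of lists with a peak. Right, the percentage of regions whose middle fell in each 20% of the gene's length. Regions in all 4 lists stand highest at the start, at 66.8%, and in the first 20% of the gene, at 74.9%.

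Regions at a start and elsewhere differed in length more than in fold. Those at a start had a median length of 334 bases and a median mean fold of 13.2, and the 258 that were over 1 kb from every start had 224 bases and 12.6. The share at a start was 64.4% for mean folds up to 10, 67.5% for 10 to 20 and 71.0% for 20 to 100, and then 36.8% for the 19 regions over 100 with a RefSeq start, where most of the tRNA neighbours lay. It was 78.0% for regions of 200 to 500 bases, 32.5% for those up to 100 bases and 42.6% for those over 1000 bases.

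Promoter windows of 250 bases before to 50 bases after a RefSeq start were overlapped by 699 of the regions. Their median GC content was 70.3%, beside 69.0% for windows overlapped by regions in 1 to 3 lists and 58.7% for all RefSeq promoter windows. GTTCNA stood on either strand in 16.3% of these windows, beside 16.9% for regions in 1 to 3 lists and 25.8% for all windows. For GTTCNANNC the shares were 6.01%, 5.90% and 7.48%. The shares were close between regions found in every list and other regions.

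Genes with several such regions carried shorter ones. The 207 regions in these hosts had a median length of 205 bases, against 342 bases for the 1113 that were alone in their host, each region being counted under 1 gene. Counted by host, 51 of 78 with a RefSeq start, or 65.4%, had a region at one, beside 665 of 900, or 73.9%, for hosts of 1 region. The 5 regions of MYH9 lay within 14.3 kb toward the end of the gene, at 81.6% to 94.8% of its length, and each was 129 to 249 bases long. Their lowest folds were 6.36 and 3.19 in knockdown lists and 12.7 and 6.50 in control lists, all in the region nearest the end. In all 5 regions of MYH9 both knockdown folds were below both control folds, an order found in 34.0% of the 1320 regions. At chr22:36300851-36301057, 1 of the 5, the folds were 6.94 and 7.93 in knockdown lists and 26.9 and 20.2 in control lists.

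CEP131, a centrosome protein gene, had 4 regions within 6.15 kb, with mean folds of 11.2 to 17.9, and MYH14, the heavy chain of nonmuscle myosin IIC, had 4 with mean folds of 11.6 to 19.5. Input reads of MYH9 and these genes were far apart, with means of 687 CPM for MYH9, 33.2 CPM for MYH14 and 23.1 CPM for CEP131. CDK11A and CDK11B, kinase genes with nearly identical sequence, had 3 regions each, of mean fold 10.1 to 43.9 and 14.7 to 41.3. Reads of this pair may have been split between them, so their regions are not independent.

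Host genes were among the more deeply read genes of the input. CPM was not divided by transcript length, so it measures reads per gene, and fewer cells with a transcript cannot be told apart from less RNA per cell. Of the 1206 hosts, 1194 were in the count table, with a median of 67.8 CPM over the 4 samples and quartiles of 30.4 and 150 CPM. Genes with regions in 1 to 3 lists only had a median of 31.0 CPM, and genes with no region 3.67 CPM, or 20.4 CPM when only genes past the filter on low counts were taken. Among genes whose best region was in 3, 2 or 1 lists the medians were 51.4, 42.4 and 22.7 CPM. The 4 samples gave the hosts like medians, 67.7 and 66.8 CPM in knockdown inputs and 66.9 and 67.3 CPM in control inputs.

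Of the 10% of tested genes with the lowest input depth, 1.20% hosted such a region, and of the 10% with the highest depth 18.9% did. The share of genes with any merged region was 19.6% in the lowest decile and between 51.3% and 61.1% from the third decile up. Of genes with any region, hosts were 6.13% in the lowest decile and 34.6% in the highest. The share of host genes moved with read depth over nearly the whole range, and the part of depth in it was not tested.

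**Figure D4:**
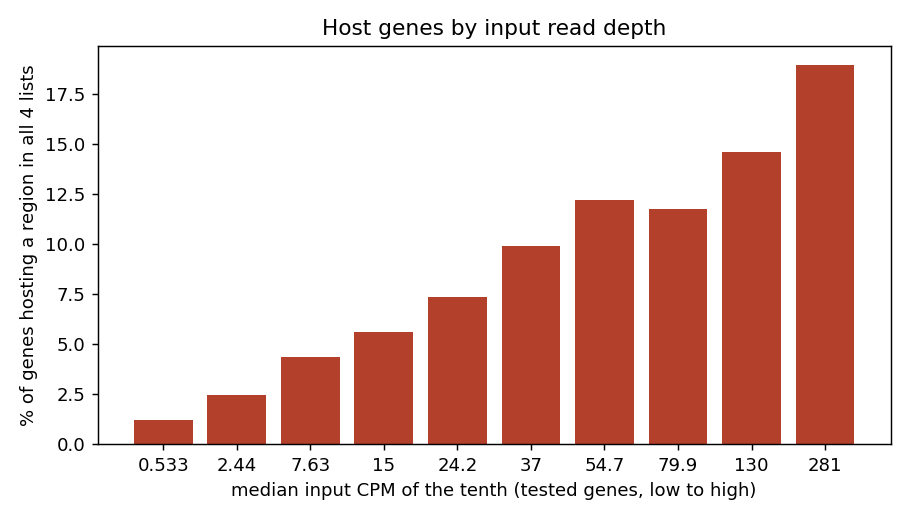
Percentage of tested genes that hosted a region found in all 4 lists, in deciles of the 13362 tested genes ordered by mean input CPM. Numbers under the bars are the median CPM of each decile. The share is 1.20% in the lowest decile and 18.9% in the highest.

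The hosts with most input reads were FLNA, which encodes filamin A, at a mean of 1574 CPM, ITGA6, the integrin alpha 6 gene, at 1433 CPM, AHNAK at 1362 CPM, the amino acid transporter gene SLC7A5 at 1330 CPM and the dynein heavy chain gene DYNC1H1 at 1300 CPM. Their regions had ordinary folds, between 6.66 for DYNC1H1 and 16.3 for AHNAK in the mean. At the other end, 28 measured hosts had under 1 CPM. CTRB1, AATF, POTEI, TSPAN7 and POTEE had at most 4 counts in any input library. Yet POTEE had region folds of 25 and 73.0 in knockdown lists and 82.4 and 56.4 in control lists. TSPAN7 had 74.8 and 57.3 in knockdown lists and 24.2 and 32.3 in control lists. The TSPAN7 region was higher in both knockdown lists, as were 13.6% of the regions. POTEE and POTEI belong to a family of near-identical copies, so their peaks are uncertain. Whether further copies of AATF in the build took its reads was not tested. A fold over an input of few reads is large with few immunoprecipitated reads, and the reads in these peaks were not analysed here.

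The share of genes that hosted such a region in each of 13 gene lists is read against 8.84% of all tested genes. In the decile with most input reads, which began at 176 CPM, the share was 18.9%. Median input was 266 CPM for translation factors, 343 CPM for splicing factors and 253 CPM for chromatin regulators. Of 76 measured genes for cytosolic ribosomal proteins, 0 hosted such a region and 1 had any merged region, although their median input was 281 CPM. The 13 mitochondrially encoded mRNAs could not be read this way, since no merged region lay on the mitochondrial genome. Of 34 measured translation factor genes, 8 or 23.5% hosted a region, EIF3A with 3 and EIF5B with folds of 29.7 and 41.3 in knockdown lists and 79.3 and 32.4 in control lists. EIF3A is a subunit of the initiation factor that holds the small ribosomal subunit, and EIF5B joins the ribosomal subunits. Aminoacyl-tRNA synthetases, which charge tRNAs, had 3 hosts of 20, AARS, HARS and YARS.

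Splicing factors had 7 hosts of 35, among them SRRM2 and HNRNPM, and chromatin regulators mutated in bladder cancer had 5 of 18, ARID1B, ASXL1, CHD6, SMARCA4 and SMARCC1, while all 18 had a region in at least 1 list. The ARID1B region had folds of 47.4 and 16.2 in knockdown lists and 26.1 and 18.9 in control lists. Ubiquitin and proteasome genes had 4 hosts of 30, cytosolic chaperones 2 of 20, histones 2 of 29, mitotic genes 1 of 21 and glycolysis genes 1 of 16, the glucose transporter gene SLC2A1. These lists differ in transcript length and depth, and the shares were not tested.

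Of 13 genes of the m1A machinery, 2 hosted a region, both for proteins with a YTH domain that binds methylated adenosine. YTHDF3 had folds of 11.0 and 10.4 in knockdown lists and 16.4 and 7.87 in control lists. YTHDC1 had folds of 4.08 and 3.33 in knockdown lists and 9.44 and 5.6 in control lists, lower in both knockdown lists as in 34.0% of the regions. Of 14 genes of the m6A machinery, 3 were hosts, the methyltransferase partners WTAP and ZC3H13 and the reader IGF2BP2. None of the genes tested in these 13 lists passed the edgeR threshold in either direction, beside 0.0374% of all 13362 genes tested. An unadjusted edgeR p under 0.05 was found for 26 of 334, or 7.78%, beside 3.3% of all genes tested. These 2 shares cannot be compared as a test, because the lists were chosen with earlier results of these data known. Median input of every list was also above that of all genes tested, and the 334 include genes that host no region. Whether the lists differ from other genes of like depth was not tested. DESeq2 called EIF3C and PUF60 of these lists, beside 24 of all genes tested, or 0.18%. Median log2 fold changes of the lists lay between -0.16 for mitotic genes, with 20 of 21 below 0, and 0.04 for the m6A machinery, beside 0.00 for all genes tested. The m1A machinery stood at -0.04, the ribosomal protein genes at -0.12 with 74 of 76 below 0, and the glycolysis genes at -0.10 with 14 of 16 below 0. Without knockdown replicate 2 the mitotic, ribosomal protein and glycolysis medians were -0.08, -0.01 and 0.03.

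RNA level of the hosts in input hardly separated knockdown from control. Of 1180 tested hosts 1 passed the quasi-likelihood test of edgeR at a Benjamini-Hochberg adjusted p under 0.05, a share of 0.0847%, beside 0.0374% of all 13362 genes. That gene was lower in knockdown, where 0.0299% of all genes passed, and 0 hosts were higher, where 0.00748% of all genes passed. With no adjustment, 14 hosts or 1.19% were higher at p under 0.05, beside 1.72% of all genes, and 20 hosts or 1.69% were lower, beside 1.58% of all genes. Both directions together held 2.88% of hosts and 3.3% of all genes. DESeq2 called 3 hosts or 0.254%, beside 0.18% of all genes. Of these, 1 was higher and 2 were lower, and each direction held 0.0898% of all genes. The median log2 fold change was -0.01 over hosts and 0.00 over all genes tested. The middle of the hosts, from the 5th to the 95th percentile, lay between -0.22 and 0.17, and that of all genes between -0.35 and 0.39.

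The host past the threshold was TJP1, the gene of a scaffold protein of tight junctions. Whether copies of TJP1 on alternate sequences of the build took part of its reads was not tested, so its level is uncertain, and the same holds for PUF60 and AATF. It measured 16.7 and 16.2 CPM in knockdown inputs and 31.5 and 33.0 CPM in control inputs, with no overlap (log2 fold change -0.97 ± 0.11 SE, edgeR adjusted p = 0.0414). Without control replicate 2 the log2 fold change was -0.94 and the adjusted p was 0.146. The TJP1 region, chr15:29822002-29822503, had folds of 11.2 and 5.87 in knockdown lists and 9.71 and 7.40 in control lists, which overlap, and its lowest score, 83.8, was under 100.

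PUF60, a splicing factor gene, measured 3.82 and 2.65 CPM in knockdown inputs and 12.5 and 30.1 CPM in control inputs. Its log2 fold change was -2.73 ± 0.39 (SE) with an edgeR adjusted p of 0.137, and DESeq2 gave an adjusted p of 0.0238. The edgeR adjusted p was 0.000266 with no filter on low counts and 0.0213 with the replicate number as a block. The log2 fold change was -1.96 without control replicate 2 and -3.22 without control replicate 1. KLF5, a transcription factor of epithelial cells, measured 702 and 767 CPM in knockdown inputs and 552 and 589 CPM in control inputs, a log2 fold change of 0.36 ± 0.08 (SE) with an edgeR adjusted p of 0.777 and a DESeq2 adjusted p of 0.0104. In both genes the groups did not overlap and the main test was not passed. The next by p were MOB3B, RAP1B, NUS1 and CPEB4 with log2 fold changes of 0.23 to 0.40, and TRIB3, STC2 and HSP90B1, genes known to respond to stress of the endoplasmic reticulum, with -0.58 to -0.24. Each of these had an edgeR adjusted p of 1.00.

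**Figure D5:**
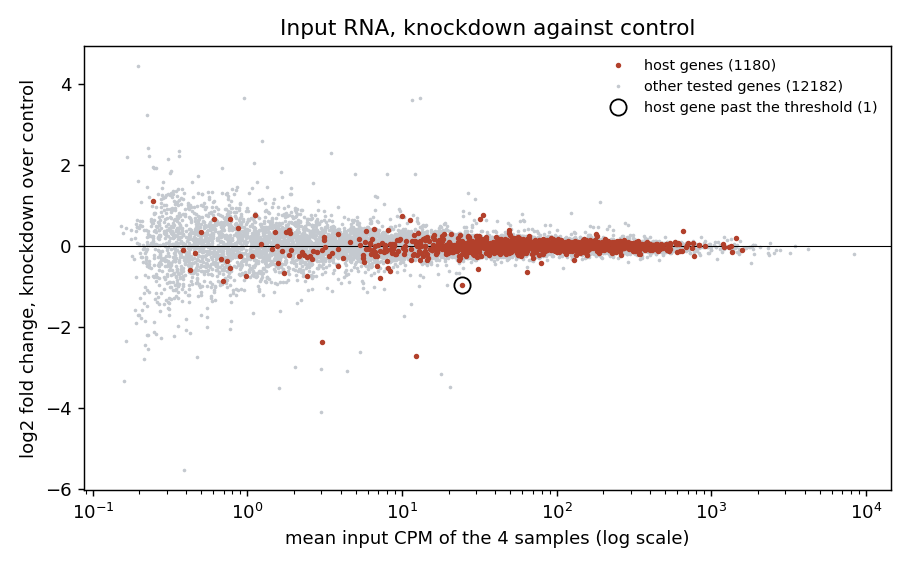
Log2 fold change of input RNA, knockdown over control, against mean input CPM on a log scale, for the 1180 tested host genes and the other tested genes (2 samples a group). The circle marks TJP1, the host past the adjusted threshold, at -0.97. Most hosts lie near 0.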

How the data were processed

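Per the file headers, the authors deposited 1 mRNA peak list a sample with a fold, the linear ratio of immunoprecipitated over input reads, and a score, 10 times the negative log10 of the caller's p. The sources used here do not state which program called the peaks. The gene table that the authors deposited holds raw counts of the 4 input libraries, and 8 normalized columns in 2 tables were not used. Per the submitters' processing notes, HISAT2 2.0.4, HTSeq 0.9.1, STAR and edgeR were used with build hg38.

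Peaks were merged by coordinates on hg38, and a region with several peaks of 1 list took the highest fold. Gene starts, tRNA genes, promoter windows and hairpins were taken from RefSeq, whose build GRCh38.p14 shares these coordinates. No window was given for chromosome 8. Names listed more than once in the count table, 13 in all, were read from the row with most counts.

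The counts of all genes were fitted with edgeR 4.0.16 in R 4.3.3 (filterByExpr with a minimum count of 10, TMM, quasi-likelihood test, no block, Benjamini-Hochberg adjustment), and 13362 of 16547 genes were tested. SEs are those implied by the F statistic. Host rows were read from that fit. DESeq2 1.42.0 was an alternative. The test and the merging were tested on simulated data. The regions, the gene lists and the rule for named genes (extremes of fold, length, score, input level, number of regions and p, members of the lists, and tRNA neighbours) were chosen with earlier results of these data known. SLC32A1, PTPRF, MXRA7, VPS37B and the 4 motif genes were chosen by fold for their sequences, and EIF5B, AHNAK and other examples after their values were seen. Of the genes this rule names, 1 is left out of the text.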

Additional observations from a re-analysis of the deposited data

How the results depend on the processing

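The number of regions was 980 with a score of at least 100, 1204 with a fold of at least 4, 1312 with an overlap of at least 0.5 of the shorter peak, 1317 under the same gene name and 1318 without chaining, and 1456 to 1776 when 1 list was left out. Counting a sample's noncoding list too, a choice made after seeing the data, gave 1363. Host genes, median length, the long motif's share and the share at a start moved by less than 1.5 times or stayed within their spread under every one of these settings that was run for them. Median input of the hosts was 67.4 to 68.1 CPM without 1 sample. For genes with no region it was 20.4 CPM when only genes past the filter were counted.

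The number of hosts past the threshold was 3 with DESeq2, 2 with no filter and 3 with the replicate number as a block, beside 24, 14 and 15 of all genes. It was 0 to 15 when 1 sample was left out, the 15 without knockdown replicate 1, beside 135 of all genes, and the 0 without control replicate 2, beside 11. Leaving a sample out leaves 1 sample in its group, which is assumed to vary like the other group. It was 0 among hosts of regions with a score of at least 100. The replicate numbers share only a number, since the labels do not pair the samples and deviations of equal numbers correlated at 0.05 over genes. With 2 samples a group, small differences may be missed.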

Other observations

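Some regions that missed 1 or more lists stood beside tRNA genes, 0.11% of them, against 1.52% of the regions in all 4 lists. Within 1 kb of a tRNA gene there were 20 regions in all 4 lists, with a median mean fold of 670, beside 5 regions in 3 lists, 5 in 2 lists and 2 in 1 list, with median mean folds of 698, 308 and 745. The highest in 2 lists reached a mean fold of 25265, taken over those 2 lists.

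The 12 hosts with no row in the count table had 1 region each, and 4 of them, MTRNR2L1, MTRNR2L8, MTRNR2L10 and MTRNR2L12, are humanin-like genes.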
